A study of Mus musculus with 246 samples.

Results

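Best1 and 7 further genes of anion channel families, Ano3, Ano6, Clcn2, Ttyh1, Ttyh2, Ttyh3 and Lrrc8a, were followed through RNA-seq libraries of 6 brain regions from 41 male mice. The 8 genes were taken by name out of a table of 56691 genes. Best1 was chosen by its values in the mice without social interaction, where it was low after early life adversity in all 6 regions, and the other 7 were added as channels of related function to ask whether they share that pattern. Everything Best1 showed between the groups of those mice is therefore given as a description, with no test. The 7 other members were picked with earlier results of these data known. All 8 genes passed the filter on low counts in each of the 6 regions.

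The mice were outbred CD1 adult males that had been raised with standard nesting (Ctrl) or under limited bedding and nesting from postnatal day 2 to 9 (early life adversity, ELA). Dams received an injection of a slow-release gel on postnatal day 2. The gel was empty (Vehicle) or held SAFit2, an inhibitor of the stress-linked cochaperone FKBP51 that reached the pups through the milk. The 3 treatments were Ctrl_Vehicle, ELA_Vehicle and ELA_SAFit2, and no control litter received SAFit2. One set of mice was killed without social interaction (NoInteraction, 7, 7 and 7 mice) and the other after 10 min with an unfamiliar mouse (SocialInteraction, 6, 7 and 7 mice). Each mouse gave 1 library per region from pooled bilateral punches. The cortical regions were the medial prefrontal cortex (mPFC, PFC in the labels) and the anterior cingulate (ACC). The others were the ventral hippocampus (vHipp, HC in the labels), the dorsomedial thalamus (DMT), the nucleus accumbens (Nacc) and the amygdala's basolateral part (BLA). The sources name the Nacc punches both as core and as shell. Mice of the 3 treatments shared cages after weaning, and the litter of a mouse was not given in the sources used here. Litters, not single mice, were assigned to a treatment. All treatment tests below take mice as independent, which littermates may not be.

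Libraries held 20804219 to 43351397 estimated counts. Marker genes of cortical, striatal, amygdalar, thalamic and hippocampal neurons each had their highest summed level in the region they mark. In the Nacc, 12 of 41 libraries resembled another mouse more than the labelled one, and in the other 5 regions 0 libraries did. This was judged by 60 genes that differ between mice and do not include the 8 members. Each of the 12 resembled a mouse of another treatment, of the other set or of both. Treatment and set labels in the Nacc are thus uncertain for these libraries. The comparisons of Best1 averaged over regions are also given without these libraries or without the Nacc. So are the effect of social interaction on Best1 and Ttyh3 in the Nacc and the members' count of called region pairs. The counts of calls between treatments, and those of the further anion channel genes below, are given with these libraries only. The choroid plexus marker level in the BLA libraries ran from 206 to 155772 normalized counts. In bulk tissue, fewer cells of a type and less RNA per cell cannot be told apart.

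Anion channels let chloride and other anions cross membranes. They thereby contribute to the control of cell volume, to inhibitory currents and, in astrocytes, to the release of transmitters. Best1 encodes bestrophin 1, a calcium-activated anion channel known from the retinal pigment epithelium, where mutations cause macular dystrophy, and described in astrocytes as a route for GABA and glutamate. Ano3 and Ano6 are anoctamins. Ano6 scrambles membrane phospholipids and conducts ions when calcium rises, and Ano3 is better known as a partner of a sodium-activated potassium channel than as a channel of its own. Clcn2 encodes ClC-2, a chloride channel opened by hyperpolarization and needed in glia for intact myelin. Ttyh1, Ttyh2 and Ttyh3 are the tweety homologues, membrane proteins linked to swelling-activated and calcium-activated anion currents. Lrrc8a is the obligatory subunit of the volume-regulated anion channel.

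Best1 (ENSMUSG00000037418.7) lies on the minus strand of chromosome 19 from 9985174 to 10001633 and is flanked closely on both sides. These and all following positions come from GENCODE M21 on GRCm38, whereas the counts were made on GRCm39, so they serve only to place the genes. Fth1, which encodes the ferritin heavy chain, ends 76 bases from the end of Best1 on the opposite strand. Rab3il1, an exchange factor for Rab3 GTPases, starts 36 bases from the start of Best1 and runs the other way. The promoter window of Best1 from RefSeq (GRCm38.p6, chr19:10001584-10001883, minus strand, 250 bases before and 50 after the annotated start) is shown because both starts lie inside it. Capitals mark the 37 bases from the annotated start of Rab3il1 to that of Best1.
Best1 promoter: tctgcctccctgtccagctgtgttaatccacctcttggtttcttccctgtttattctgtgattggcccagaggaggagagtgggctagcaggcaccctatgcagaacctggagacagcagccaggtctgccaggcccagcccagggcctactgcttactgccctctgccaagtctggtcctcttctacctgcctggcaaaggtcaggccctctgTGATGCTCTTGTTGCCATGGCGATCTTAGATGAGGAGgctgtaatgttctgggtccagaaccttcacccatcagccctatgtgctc
The other 7 members lie on other chromosomes. Lrrc8a (chromosome 2, 30237715 to 30263790) and Ano3 (chromosome 2, 110655201 to 110950923) share a chromosome far apart. Clcn2 is on chromosome 16, Ttyh1 on 7, Ttyh2 on 11, Ttyh3 on 5 and Ano6 on 15, all as protein-coding genes.

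Best1 was the scarcest of the 8 by a wide margin. Per kilobase of exon, its mean level over regions was 7.2 normalized counts, against 74.4 for Ano6, the next. Ttyh1 led with 1890.4 normalized counts per kilobase, ahead of Ttyh3 with 1312.1 and Ano3 with 610.6. Lrrc8a, Clcn2 and Ttyh2 lay at 309.3, 273.9 and 235.1. A single library thus held between 0 and 58.5 normalized counts of Best1, where a normalized count is the estimated count divided by the library's relative size, so that single values carry a large counting error.

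Best1 was low in ELA_Vehicle mice without interaction, and that is the pattern it was chosen by. Averaged over the 6 regions of a mouse, normalized counts of Best1 ran from 1.5 over a median of 23.6 to 32.3 in the 7 Ctrl_Vehicle mice. In the 7 ELA_Vehicle mice they ran from 0.8 over 13.1 to 18.9. In the 7 ELA_SAFit2 mice they ran from 13.2 over 24.6 to 29.4. The ranges of all 3 groups overlapped, and the lowest control mouse sat among the lowest ELA_Vehicle mice. The group means were 21.4 ± 10.8, 9.3 ± 7.8 and 21.8 ± 6.2 (SD, n = 7 each). On the log2(normalized count + 1) scale, ELA_Vehicle minus Ctrl_Vehicle was -1.47 and ELA_SAFit2 minus ELA_Vehicle was 1.76 as means over regions. By region the first ranged from -1.16 in the BLA to -1.83 in the DMT, and the second from 1.38 in the BLA to 2.19 in the DMT. ELA_SAFit2 minus Ctrl_Vehicle was 0.30. Without the Nacc the group means were 22.5 ± 11.3, 9.8 ± 8.1 and 22.9 ± 6.7 normalized counts, and the 3 differences were -1.44, 1.72 and 0.28. Both main differences share the ELA_Vehicle libraries, so that a low ELA_Vehicle group moves them in opposite directions.

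In the mice with social interaction, which were not used to choose the gene, Best1 did not differ detectably between treatments. Mean normalized counts over regions ran from 1.2 over a median of 17.2 to 24.4 in the 6 Ctrl_Vehicle mice. They ran from 2.2 over 14.9 to 33.3 in the 7 ELA_Vehicle mice, and from 11.2 over 23.9 to 28.1 in the 7 ELA_SAFit2 mice. The ranges of all 3 groups overlapped, and the ELA_Vehicle mice reached from near the lowest control to above the highest. Mean log2 levels were 3.65 ± 1.41 (SD, n = 6), 3.87 ± 1.33 (n = 7) and 4.42 ± 0.46 (n = 7). ELA_Vehicle minus Ctrl_Vehicle was 0.22, opposite in sign to the other set (two-sided exact permutation test over mice, p = 0.668, adjusted p = 0.668 over 3 comparisons). ELA_SAFit2 minus ELA_Vehicle was 0.55 (exact p = 0.379, adjusted p = 0.569) and ELA_SAFit2 minus Ctrl_Vehicle 0.77 (exact p = 0.155, adjusted p = 0.465). edgeR called none of these 3 comparisons in any region (smallest adjusted p = 0.751). Without the Nacc the 3 differences were 0.11, 0.64 and 0.75 (exact permutation p = 0.832, 0.352 and 0.184). Single mice moved all 3 values. Without Ctrl_Vehicle mouse 49 the first became -0.34, without ELA_Vehicle mouse 59 it became 0.69, and the second became 0.08 without mouse 59. The third became 0.21 without mouse 49, and 0.93 without the lowest ELA_SAFit2 mouse (exact permutation p = 0.0303, adjusted p = 0.0909). The difference of the contrasts between the sets was not tested for Best1, since 1 of the sets chose it.

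**Figure D1:**
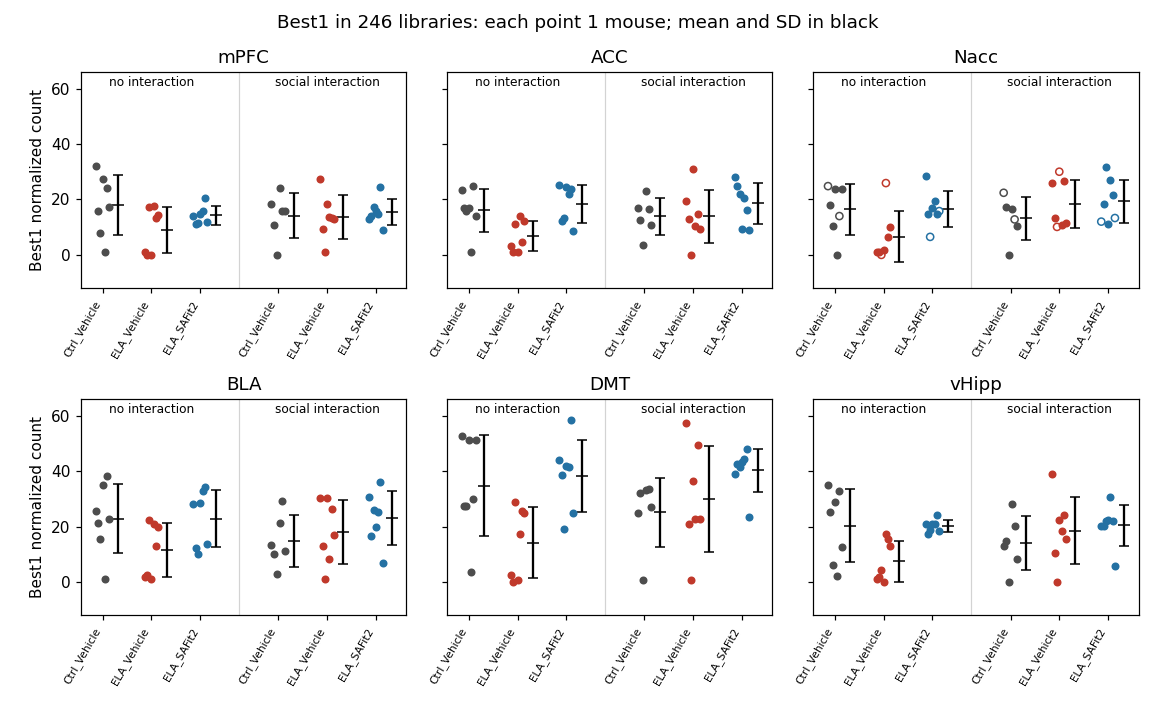
Best1 normalized counts in each library, by region (panels), treatment (colour) and set (left and right of each panel); black marks give the mean and SD, and open symbols the 12 Nacc libraries that resembled another mouse. The ELA_Vehicle mice without interaction include several values near 0 in every region, while outside the Nacc each control group and the ELA_Vehicle group with interaction holds 1 mouse that is near 0 in all regions.

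The spread of Best1 came from mice that were low or not low in all their regions at once. Outside the Nacc, 6 of 41 mice had fewer than 5 normalized counts in each of the 5 regions, a limit set after the values were seen. ELA_Vehicle mouse 43 (NoInteraction) had 0.0 to 1.0 normalized counts of Best1 over those regions, ELA_Vehicle mouse 13 (NoInteraction) 0.0 to 2.4 and ELA_Vehicle mouse 5 (NoInteraction) 0.9 to 3.2. Ctrl_Vehicle mouse 65 (NoInteraction) had 1.1 to 3.7, Ctrl_Vehicle mouse 49 (SocialInteraction) 0.0 to 3.4 and ELA_Vehicle mouse 59 (SocialInteraction) 0.0 to 1.1. These 6 mice carried only 3 to 9 reads of Best1 in all 5 libraries together. The other 35 mice carried 58 to 167 reads, with means over the 5 regions from 10.8 to 34.8 normalized counts, so that no mouse lay between a mean of 1.9 and 10.8. By treatment, the low mice were 1 of 7 Ctrl_Vehicle, 3 of 7 ELA_Vehicle and 0 of 7 ELA_SAFit2 mice without interaction, and 1 of 6, 1 of 7 and 0 of 7 with interaction. Low mice thus occurred under both rearing conditions and in both sets. Whether low mice shared a litter cannot be told.

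The Nacc broke this regularity where its library did not resemble the labelled mouse. The Nacc library labelled mouse 37 held 0.0 normalized counts of Best1, although that mouse had 4.3 to 28.8 elsewhere. By the 60 genes, this library resembled mouse 59, a low mouse. The library labelled mouse 59 held 10.1 and resembled an ELA_SAFit2 mouse without interaction, which had 8.5 to 24.9 elsewhere. Across mice, Best1 in one region correlated with Best1 in another at Pearson's r of 0.84 to 0.95 for the pairs without the Nacc and at a median of 0.67 for those with it (41 mice, values sharing the animal, and spanning the gap between low and other mice).

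**Figure D2:**
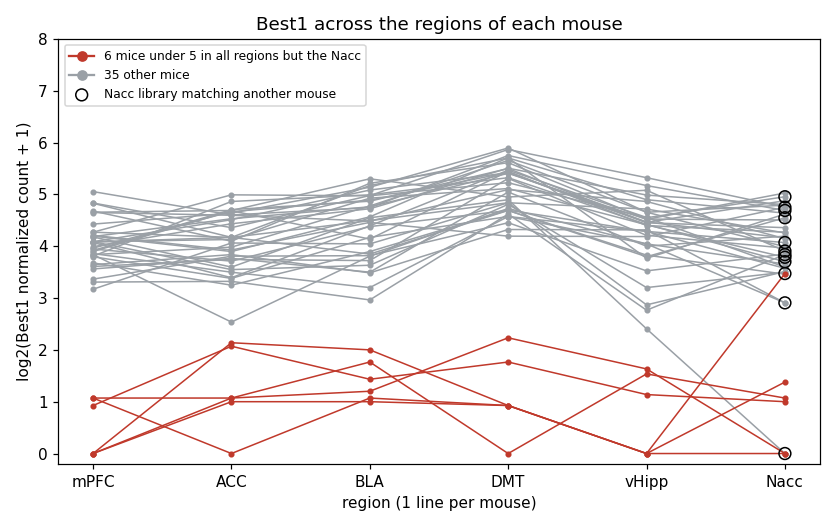
Best1 as log2(normalized count + 1) across the regions of each mouse, 1 line per mouse; red lines are the 6 mice under 5 normalized counts in all regions but the Nacc, and open circles mark Nacc libraries that resembled another mouse. The red lines stay below the grey lines in all 5 regions left of the Nacc, and 1 line of each kind crosses at the Nacc.

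Of the 8 genes, Best1 had by far the largest share of variance between mice. After the mean of each region and group was removed, differences between mice made up 81.5% of the variance of Best1 (jackknife SE 5.9 over 41 mice), which lay at the 99.7th percentile of 15173 genes, whose median was 9.2%. The other members ranged from 0.0% for Ano3 over 15.7% for Clcn2, 15.9% for Lrrc8a, 17.1% for Ttyh2, 22.0% for Ttyh1 and 25% for Ano6 to 25.5% for Ttyh3. Without the Nacc the share of Best1 was 87.8%. The share of Best1 spans the gap between the low and the other mice, and its share within the mice that were not low is not given here. Being alike across regions is close to what brought Best1 to notice, so these shares are a description and carry no test.

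Over all 41 mice, none of the other 7 members stood among the genes most like Best1. Over 41 mice, Pearson's r with Best1, on log2 levels centred per region and averaged over the regions of a mouse, was 0.16 for Ano6, 0.13 for Ttyh3, 0.06 for Ano3, 0.05 for Lrrc8a, -0.02 for Clcn2, -0.13 for Ttyh1 and -0.24 for Ttyh2. Their median was 0.05, and an absolute r of 0.29 was the 95th percentile of 15172 genes. Within the 35 mice that were not low, and without the Nacc, the 7 values ran from -0.21 for Clcn2 to 0.20 for Ano6. Within a single set some were further from 0 and turned between sets. Ttyh1 had r = -0.42 in the mice without and 0.35 in the mice with interaction, and Ttyh2 -0.00 and -0.46, where the 95th percentile of the absolute r was 0.42 and 0.43. The genes most like Best1 were Eef1g, a subunit of translation elongation factor 1 (r = 0.65), S100a3, a calcium-binding protein (0.59), Cacng6, a calcium channel subunit (0.54), Mettl24, a putative methyltransferase (0.54), and Ttc9c (0.52). Pop4, a subunit of ribonuclease P, was the most opposed (-0.58). These values span the gap between the low and the other mice. Spearman's rho was 0.63 for Eef1g, 0.41 for Cacng6, 0.38 for S100a3 and for Mettl24, and 0.30 for Ttc9c. It was -0.16 for Pop4, and the 95th percentile of the absolute rho was 0.31. S100a3, Mettl24 and Cacng6 were scarce, with means of 7.8, 21.9 and 32.1 normalized counts. Within the 35 mice, again without the Nacc, the 95th percentile of the absolute r was 0.35. There r was 0.46 for Eef1g, 0.25 for S100a3, 0.22 for Cacng6, 0.16 for Mettl24, -0.01 for Ttc9c and 0.09 for Pop4. Eef1g and Ttc9c lie 1.02 and 1.18 Mb from Best1 on chromosome 19, which holds 3 of the 20 most alike genes and 3.37% of the genes compared. The head-to-head neighbour Rab3il1, picked for its place after its values were seen, came eighth with r = 0.51, and 0.43 within the 35 mice without the Nacc. The tail-to-tail neighbour Fth1 had r = -0.37 and -0.19.

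The other 7 members had no called difference between treatments. Within regions, edgeR's quasi-likelihood test called 0 of 252 comparisons of these genes at an adjusted p under 0.05 (6 regions, both sets, 3 pairs of treatments), DESeq2 also called 0, and 10 had an unadjusted p under 0.05. Over all genes, 3 of 569856 comparisons were called and 4.38% had an unadjusted p under 0.05. By pair, the percentage of all genes called without interaction was 0.00105% for ELA_Vehicle minus Ctrl_Vehicle, 0.00105% for ELA_SAFit2 minus ELA_Vehicle and 0% for ELA_SAFit2 minus Ctrl_Vehicle, and with interaction 0.00105%, 0% and 0%. The 3 pairs at 0% had 2841, 3679 and 4482 of 94976 gene tests with an unadjusted p under 0.05 and 14, 11 and 45 calls by DESeq2. At so low a background the absence of calls among 7 genes is not particular to them.

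Their edgeR log2 fold changes lay between -0.28 and 0.71 with a median size of 0.05. On that scale Best1, by whose values it was chosen, ran over regions without interaction from -1.38 to -0.97 for ELA_Vehicle minus Ctrl_Vehicle and from 0.61 to 1.40 for ELA_SAFit2 minus ELA_Vehicle. The highest value, 0.71, was that of Ano3 in the DMT for ELA_SAFit2 minus ELA_Vehicle without interaction, where Ano3 is low (261.3 ± 131.9 against 160.1 ± 81.7 normalized counts, SD, n = 7 each, with overlapping ranges). The smallest p, 0.00465, was that of Ano6 in the DMT for ELA_SAFit2 minus ELA_Vehicle with interaction. There Ano6 ran from 805.4 over 849.3 to 897.2 normalized counts in ELA_Vehicle mice and from 660.1 over 718.1 to 859.3 in ELA_SAFit2 mice, and the ranges overlapped. The smallest adjusted p over the 252 was 0.344. In the Nacc without the libraries that resembled another mouse, the smallest edgeR adjusted p of the 7 genes was 0.87. It belonged to Ano3 for ELA_SAFit2 minus ELA_Vehicle without interaction. When counts were summed over the 6 regions of each mouse, log2 fold changes of the 7 genes lay between -0.07 and 0.13, edgeR and DESeq2 called 0 of 42, and 0 of them had an unadjusted p under 0.05 (smallest adjusted p = 0.88). All 6 summed treatment comparisons called 0% of 17381 genes with edgeR, with 545 to 1017 genes at an unadjusted p under 0.05 and 1 to 9 called by DESeq2.

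For the pairs that chose Best1, the summed fits of the 7 genes stood as follows beside that of Best1 without interaction. For ELA_Vehicle minus Ctrl_Vehicle, the edgeR log2 fold change was -1.17 for Best1, given without SE as a description. It was 0.13 for Ttyh2 (SE 0.08), 0.06 for Lrrc8a (0.05), 0.01 for Ttyh1 (0.03), -0.01 for Ttyh3 (0.03), -0.02 for Ano6 (0.05), -0.02 for Clcn2 (0.03) and -0.05 for Ano3 (0.06). For ELA_SAFit2 minus ELA_Vehicle it was 1.18 for Best1, 0.09 for Ano3 (SE 0.06), 0.05 for Clcn2 (0.03) and 0.00 for Ano6 (0.05). It was -0.02 for Ttyh3 (0.03), -0.03 for Ttyh1 (0.03), -0.05 for Ttyh2 (0.08) and -0.05 for Lrrc8a (0.05). The change of either pair between the sets was called for 0 of the 7 genes with edgeR, and 0 had an unadjusted p under 0.05. Over all genes it was called for 0% for ELA_Vehicle minus Ctrl_Vehicle (907 genes at an unadjusted p under 0.05, 0 called by DESeq2) and for 0.0403% for ELA_SAFit2 minus ELA_Vehicle.

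Of 31 further anion channel genes, among them other bestrophins, anoctamins, ClC channels and transporters, LRRC8 subunits and CLIC proteins as well as Cftr and Pacc1, 28 were tested within at least 1 region. edgeR and DESeq2 called 0 of their 924 treatment comparisons within regions, 34 of which had an unadjusted p under 0.05, and 0 of 180 on summed counts, where 7 did. Over all genes these are the comparisons with 3 of 569856 called and 4.38% at an unadjusted p under 0.05 within regions, and 0% called on summed counts, so that the counts of the list stand near the background.

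Social interaction, in contrast, came with higher Ttyh3. This gene was picked as a member with earlier results of these data known, and its p-values do not allow for that. In the mPFC, Ttyh3 ran from 6010 over a median of 6814 to 7683 normalized counts in the 21 mice without interaction and from 6642 over 8002 to 9885 in the 20 mice with it. Mean levels were 6866 ± 497 and 8011 ± 702 (SD), and the ranges overlapped although the upper median exceeded the highest value of the other set. The log2 fold change was 0.22 (SE 0.04, edgeR adjusted p = 0.000104), in a region where 7.4% of genes were called. In the ACC the means were 7175 ± 389 and 8062 ± 516, a log2 fold change of 0.16 (SE 0.03, adjusted p = 0.000215, 4.15% of genes called). In the BLA they were 6157 ± 359 and 6692 ± 495 (0.12, SE 0.03, adjusted p = 0.0398, 1.49% called), and here the call was lost with genes of all types in the test (adjusted p = 0.0632).

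The remaining regions gave smaller values of Ttyh3 with the same sign. In the vHipp it was 0.10 (adjusted p = 0.0558, 1.21% of genes called), which passed the threshold with DESeq2 (adjusted p = 0.0243) and with treatment as an additive term in edgeR (adjusted p = 0.0466). In the DMT it was 0.07 (adjusted p = 0.317, 1.6% called). In the Nacc it was 0.08 (adjusted p = 1) and 0.12 without the 12 libraries that resembled another mouse (adjusted p = 0.584). No gene at all was called in the Nacc (0%), where 391 of 15881 genes had an unadjusted p under 0.05 and DESeq2 called 0. These counts include the 12 libraries, each of which resembled a mouse of another treatment or set. Counts over all genes without them are not given here. On summed counts Ttyh3 rose by 0.12 (SE 0.02, adjusted p = 0.000166, 8.56% of genes called), and by 0.13 without the Nacc (adjusted p = 9.81e-05). Whether the sets were collected or sequenced together is not given in the sources used here, so that social interaction and any batch between the sets cannot be told apart.

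**Figure D3:**
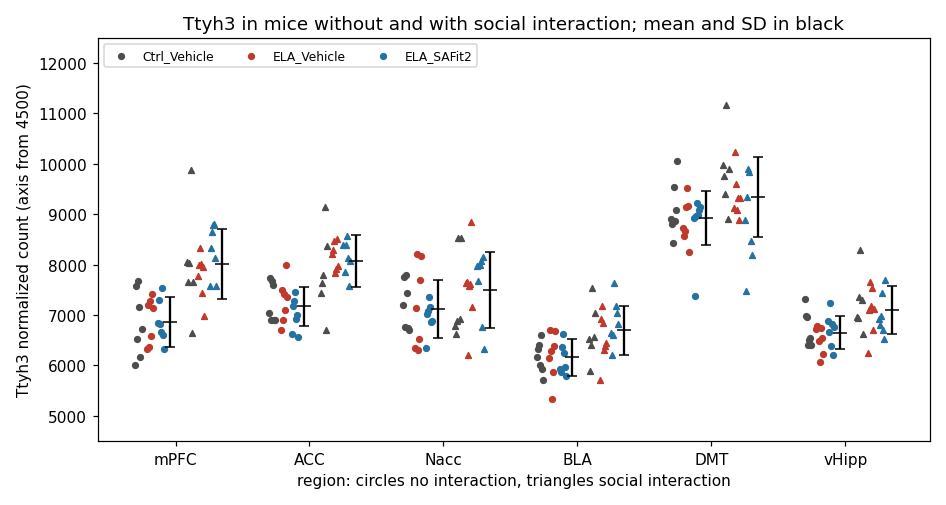
Ttyh3 normalized counts by region in mice without (circles) and with (triangles) social interaction, coloured by treatment, with mean and SD in black; the vertical axis does not start at 0. The mean is higher with interaction in all 6 regions and the shift is widest in the mPFC and ACC.

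Among the other members, Lrrc8a rose in the mPFC, from 1106 ± 57 to 1177 ± 73 normalized counts (log2 fold change 0.09, SE 0.02, adjusted p = 0.0156), and Clcn2 fell on summed counts by 0.06 on the log2 scale (SE 0.02, adjusted p = 0.0231), with a negative value in each region and none called there. Together, 4 of the 42 within-region tests of the 7 genes were called, all upward, and 3 to 5 under the alternatives. Over all genes 2.64% of the tests in the 6 regions were called. Since the members were picked with earlier results of these data known, no test of their count against that share is given. Ttyh2 in the vHipp had -0.20 (adjusted p = 0.135). Best1 is described only, with edgeR log2 values from -0.00 in the BLA to 0.46 in the Nacc (0.63 without the 12 libraries that resembled another mouse). On summed counts it was at 0.21. Of the 31 further genes, Clic5, a chloride intracellular channel protein tied to the actin cortex, rose in the mPFC (0.27, adjusted p = 0.0129), in the BLA (0.23, adjusted p = 0.0229) and on summed counts (0.13, adjusted p = 0.0124). Ano10 fell on summed counts by 0.09 (adjusted p = 0.0064). Those were 2 of 154 tests within regions (1.3%, 4 with DESeq2) and 2 of 30 on summed counts (6.67%, 3 with DESeq2), below the 2.64% and 8.56% over all genes, so that they are not a result about the list.

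Levels of cell type markers beside these values were as follows. The summed level of 7 astrocyte genes had means of 109944 and 114794 normalized counts without and with interaction in the mPFC, 110424 and 111602 in the ACC, and 94597 and 98357 in the BLA. The summed level of 5 oligodendrocyte genes in the mPFC was 8431 and 8539.9. The part of astrocyte content in the rise of Ttyh3 was not tested. Across mice, Ttyh3 correlated with the astrocyte list at r = 0.45 in the mPFC (permutation p = 0.00341, adjusted p = 0.02, rho = 0.52, 0.41 without the 2 mice farthest from the median), 0.42 in the ACC (permutation p = 0.00455, adjusted p = 0.0241, rho = 0.38) and 0.25 in the BLA (permutation p = 0.118, adjusted p = 0.271, rho = 0.29). Over all 6 regions this r ran from 0.08 to 0.57, and 4 regions had an adjusted permutation p under 0.05. These correlations take mice of both sets together, and in the mPFC both Ttyh3 and the astrocyte list had higher means with interaction. Correlations within a single set are not given here. All these values belong to 329 relations of members with marker lists, each with 100000 permutations.

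Ttyh2 followed the oligodendrocyte genes in all 6 regions, the only pairing of a member with a marker list that did so with an adjusted p under 0.05 in each. Its r with the 5 oligodendrocyte genes (Mog, Mag, Mobp, Opalin and Cldn11, all myelin components) over 41 mice was 0.96 in the ACC, 0.91 in the BLA, 0.88 in the mPFC, 0.85 in the vHipp, 0.80 in the Nacc and 0.73 in the DMT. Spearman's rho ran from 0.65 to 0.97, and r without the 2 farthest mice from 0.54 to 0.95 (permutation p = 1e-05 for r in each region, the smallest these permutations can give, adjusted p = 0.000173). In the ACC, Ttyh2 spanned 304.5 to 1729 normalized counts while the list spanned 3972.5 to 41198. Punches with more myelin gene mRNA thus held more Ttyh2. For Best1, within the 35 mice that were not low, 0 of 35 relations with the 7 marker lists in 5 regions had an adjusted p under 0.05, and r lay between -0.40 and 0.41.

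**Figure D4:**
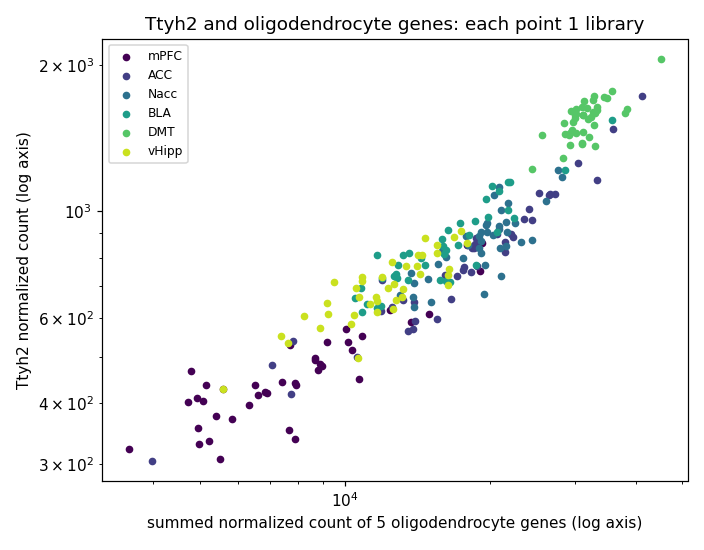
Ttyh2 against the summed level of 5 oligodendrocyte genes, both as normalized counts on log axes, 1 point per library and 1 colour per region. Libraries of all regions lie along one band, with the DMT at its upper end and the mPFC at its lower end.

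Across regions, Best1 was highest in the DMT. Its mean there was 30.6 ± 16.2 normalized counts (SD over 41 mice), against 19 ± 10.9 in the BLA, 17 ± 10.0 in the vHipp, 15.1 ± 8.9 in the Nacc, 14.7 ± 8.0 in the ACC and 14.1 ± 7.7 in the mPFC. The DMT was the highest of the 6 regions in 34 of 41 mice and in 33 of the 35 that were not low. All 5 pairs with the DMT were called, with log2 fold changes from 0.66 against the BLA (SE 0.21, adjusted p = 0.00251) to 1.07 against the mPFC (SE 0.21, adjusted p = 1.81e-06), and none of the other 10 pairs. With the mouse as a block, which uses that the 6 regions come from the same animal, 9 pairs were called, adding the BLA above the mPFC (adjusted p = 0.000426), ACC (0.0033) and Nacc (0.011) and the vHipp above the mPFC (0.0401). The block fit kept the 12 Nacc libraries that resembled another mouse, for which the pairing is uncertain, and was not made without them. Neighbours in the order that did not differ beyond their spread even with the block were BLA and vHipp, vHipp and Nacc, Nacc and ACC, and ACC and mPFC.

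The DMT was also the highest region of Ttyh1, Ttyh2, Ttyh3 and Lrrc8a, and the lowest of Ano3 and Clcn2. The 8 genes had 92 of 120 region pairs called, close to the background of 75.5% over all genes, so that differing between regions is not particular to them. Without the 12 Nacc libraries that resembled another mouse, 91 were called. Ano3 had the widest range, from 6416.3 ± 624.4 normalized counts in the vHipp and 6053 ± 1045 in the Nacc, which did not differ (adjusted p = 0.33), over 4850 ± 1327 in the BLA, 4812 ± 495 in the ACC and 4096 ± 620 in the mPFC to 214 ± 131 in the DMT, a 29.95-fold range. Each region stood above the DMT (adjusted p at most 1.18e-115), with BLA and ACC the other pair not called. Ano6 was highest in the vHipp (1129 ± 61) and lowest in the ACC (699.5 ± 76.5), with 14 of 15 pairs called and BLA and Nacc alone undecided (adjusted p = 0.0718, and 0.0349 with the mouse block). Clcn2 fell from 2025 ± 136 in the ACC and 1967 ± 175 in the mPFC, which did not differ detectably, to 1207 ± 56 in the DMT.

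The tweety homologues differed in how strongly they varied. Ttyh2 was at 1551.5 ± 148.7 normalized counts in the DMT, at 869 ± 139, 862 ± 190 and 821 ± 278 in the Nacc, BLA and ACC, which were not told apart, at 697 ± 108 in the vHipp and at 474 ± 127 in the mPFC, a 3.27-fold range. The DMT and the mPFC were also the highest and lowest regions of the oligodendrocyte list. Ttyh1 varied 1.33-fold, from 13886.5 ± 764.1 in the DMT to 10421 ± 778 in the vHipp, with mPFC, ACC and BLA not told apart. Ttyh3 varied 1.42-fold, from 9127 ± 697 in the DMT to 6417.7 ± 504.2 in the BLA, with the mPFC not told apart from the ACC and Nacc. Lrrc8a was at 1919 ± 127 in the DMT and at 1339 ± 329 in the Nacc, and the other 4 regions lay between 1141 and 1224 with only the pair of mPFC and vHipp called (adjusted p = 0.00781).

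**Figure D5:**
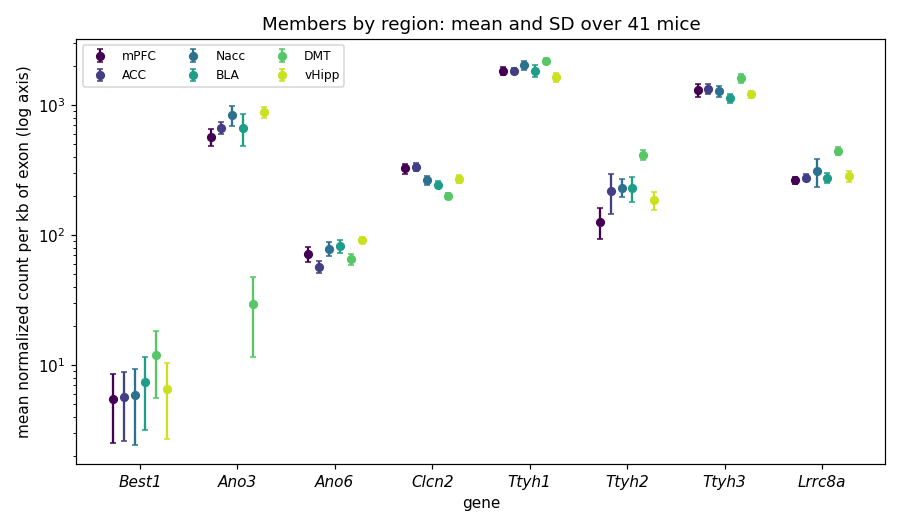
Mean and SD over 41 mice of the 8 genes in each region, as normalized counts per kilobase of exon on a log axis. Best1 lies at the bottom with its highest point in the DMT, and Ano3 drops in the DMT alone.

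Of the 31 further genes, 338 of 450 region pairs were called (75.1%). The 3 widest ranges were those of Clic6 (log2 range 6.74, highest in the BLA), Best3, a bestrophin like Best1 (5.56, highest in the vHipp with 102.6 normalized counts and lowest in the ACC with 1.2), and Ano2, a calcium-activated chloride channel of olfactory sensory neurons (4.41, highest in the Nacc with 637.3). Clic6 is also made by choroid plexus, whose marker level in the BLA is given above, and its part in the BLA value was not tested. Across mice, some members ran with the choroid plexus genes in single regions. Over the 6 regions, r was -0.15 to 0.68 for Ano6, -0.74 to 0.30 for Ttyh1, -0.68 to -0.03 for Ano3 and -0.44 to 0.03 for Ttyh3. For Clcn2 it was -0.20 to 0.20 and for Ttyh2 -0.21 to 0.22. The part of choroid plexus in the members' region levels was not tested. Best2 stayed at or below 0.8 normalized counts in each region.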

How the data were processed

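Bulk polyA RNA-seq of 6 regions from 41 mice was analysed from a table of estimated counts per gene, which the authors deposited after salmon quantification. The submitters' processing notes also name STAR, DESeq2 and GRCm39, with tool versions not given in the sources used here. Estimated counts were rounded (12.12% were fractional) and scaled with edgeR's TMM factors. Of 56691 gene IDs, 52073 matched GENCODE M21 and 978 were typed by RefSeq symbol. Of the protein-coding genes, those were kept that were counted in 6 or more libraries of the fit and reached a sum of 100.

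Treatments and sets were compared by edgeR's quasi-likelihood test (edgeR 4.0.16, limma 3.58.1, R 4.3.3) within each region on 41 libraries with the 6 treatment-by-set groups, and on counts summed per mouse, with Benjamini-Hochberg adjustment over all genes of a comparison and a threshold of 0.05. Region pairs used all libraries in 1 fit, adjusted over genes and 15 pairs. The SE of an edgeR log2 fold change is its size divided by the square root of the quasi-likelihood F. DESeq2 1.42.0 was an alternative. The scripts were tested on simulated counts. Best1 in mice with interaction was tested by exact permutation over mice on log2(normalized count + 1), with a pseudocount of 1. Marker relations used 100000 permutations (Python 3.11.15, SciPy 1.17.1).

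The members and lists were chosen with earlier results of these data known. Genes alike to Best1 were named by rule as the 5 highest r and the lowest over 41 mice, with Fth1 as its neighbour. From the further anion channel genes, those called in a treatment or interaction comparison and the 3 with the widest range over regions were named. The mouse number marks the same animal in all 6 regions, so it pairs the libraries. By 60 genes this held in all libraries of 5 regions and in all but 12 of the Nacc, where the r of these 12 with their labelled mouse was at most 0.175. Litter, and whether the 2 sets were collected or sequenced together, are not given in the sources used here, so that social interaction and any batch between the sets cannot be told apart. 1 marker gene of the lists is not reported here and was left out of all sums. Protein sequences were not used here.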

Additional observations from a re-analysis of the deposited data

Results flagged for a closer look

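Mice that stood far from the rest of their group were looked for in 84 groups, 48 of mean levels over regions and 36 of Best1 by region. Of these, 9 held such a mouse. Chance gives about 1 in 20 for independent groups, but the Best1 groups by region repeat the same mice and its mean levels. The 9 groups therefore cannot be set against that rate. Best1 accounted for 8 of the 9, and its values without interaction also chose the gene. On the log2 deviation averaged over regions, Ctrl_Vehicle mouse 65 without interaction was at -2.64 (next mouse -0.09), Ctrl_Vehicle mouse 49 with interaction at -3.00 (next -0.04), ELA_Vehicle mouse 59 with interaction at -2.75 (next -0.04) and 1 ELA_SAFit2 mouse with interaction at -0.37 (next 0.41). The first 3 are among the 6 mice with low Best1 in all regions but the Nacc. The 3 low ELA_Vehicle mice without interaction did not stand apart in this way, as they made up 3 of 7 in their group.

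By region, mouse 49 had 0.9 normalized counts of Best1 in the DMT (next 24.8), and that ELA_SAFit2 mouse had 23.6 in the DMT (next 39) and 5.8 in the vHipp (next 20.1). The Nacc library labelled ELA_Vehicle mouse 69 without interaction was high with 25.9 (next 10.0), and it is 1 of the 12 that resembled another mouse.

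Lrrc8a was high in Ctrl_Vehicle mouse 57 with interaction, with a mean log2 deviation of 0.39 (next 0.05). That mouse had 2421.8 normalized counts in the DMT, 2113.0 in the Nacc, 1616.1 in the vHipp, 1496.3 in the ACC, 1436.6 in the BLA and 1388.3 in the mPFC.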

How the results depend on the processing

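Of 115 alternatives, 112 kept the direction and the side of the threshold or, for counts of calls, stayed within 1.5 times the count. Among these the calls for social interaction went from 4 to 5 with DESeq2 and with treatment as an additive term, where Ttyh3 in the vHipp gained its call, and to 3 with genes of all types, and the calls over region pairs from 92 to between 91 and 97. With ELA_Vehicle minus Ctrl_Vehicle of Best1 in mice with interaction at 0.22, leaving out single mice gave -0.34 (without Ctrl_Vehicle mouse 49, exact permutation p = 0.752) to 0.69 (without ELA_Vehicle mouse 59), and for ELA_SAFit2 minus ELA_Vehicle 0.08 (without mouse 59) to 0.74 (without ELA_Vehicle mouse 21), with no p under 0.05. ELA_SAFit2 minus Ctrl_Vehicle, whose alternatives were added after seeing the data, ran from 0.21 (without mouse 49) to 0.97 (without Ctrl_Vehicle mouse 57), with exact permutation p from 0.0303 (without the lowest ELA_SAFit2 mouse, adjusted p = 0.0909) to 0.41. The share of variance of Best1 between mice rose from 81.5% to 87.8% without the Nacc, which holds the 12 libraries that resembled another mouse. Ttyh3 in the BLA lost its call with genes of all types in the test (adjusted p = 0.0632). With the mouse as a replicate block, and with those 12 libraries kept, 97 in place of 92 of the 120 region pairs were called. The median likeness of the 7 members to Best1 ran from -0.04 to 0.06 over the settings tried, and was -0.01 within the 35 mice without low Best1, a setting chosen after seeing the data. Single members varied more, with Ttyh1 at -0.42 and Ttyh2 at -0.46 within single sets of mice. Best1 had 3 to 9 reads over 5 libraries in the low mice and 58 to 167 in the others, which limits the precision of single libraries.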
